A study of Homo sapiens with 6 samples.

Results

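The genes described here are 10 that act upstream of the let-7 microRNAs: LIN28B and LIN28A, the nuclear cleavage genes DROSHA and DGCR8, the export receptor XPO5, the cytoplasmic cleavage genes DICER1 and TARBP2, the uridylating enzymes ZCCHC11 and ZCCHC6, and the exonuclease DIS3L2. The list was drawn up by the genes' roles, with earlier results of these data known, and all 10 were found by symbol among the 57861 genes kept. The RNA came from MOLP-8 cells, a long-cultured human line derived from multiple myeloma, a cancer of plasma cells. In the LIN28B KO group (3 libraries) the cells carried lentiCRISPRv2, a lentiviral vector for Cas9 and a guide RNA, with a guide against LIN28B. In the control group (3 libraries) they carried the same vector with a scrambled guide. Both groups were selected with puromycin and carry the vector. Whether the KO cells are a pool or 1 clone, and whether its 3 libraries are separate cultures, is not given in the sources used here, so that the p-values below measure only the spread between these libraries.

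In the let-7 pathway, the Microprocessor (DROSHA with its RNA-binding partner DGCR8) cuts a hairpin precursor out of a primary transcript in the nucleus, exportin-5 (XPO5) carries it to the cytoplasm, and DICER1 with TARBP2 cuts off its loop. LIN28 proteins bind let-7 precursors and block these steps, in part by recruiting the terminal uridylyltransferases ZCCHC11 (TUT4) and ZCCHC6 (TUT7), whose U tail marks the precursor for decay by DIS3L2. Mature let-7 microRNAs pair through their seed with sites in the 3′ untranslated regions (3′UTRs) of messages, LIN28B among them. The libraries measure RNA of these genes. Levels of mature let-7 were not analysed here.

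The zinc knuckles of LIN28 recognise GGAG in the part of the precursor between its arms. RefSeq (GRCh38.p14) lists 12 hairpins of the family, with 9 distinct mature sequences from their 5′ arms that share 1 seed, GAGGUAG (bases 2 to 8). GGAG lay between the arms in 9 of the 12, counting MIRLET7F2 up to the end of its hairpin because no 3′ arm is listed for it. It did so in 60 of 739 human hairpins with both arms listed (8.12%). It was not between the arms in MIRLET7A3, MIRLET7B and MIR98. The sequences below, 5′ to 3′, show the shared seed in 3 mature forms (seed in capitals) and then 3 hairpins with the motif and 3 without it (GGAG between the arms in capitals). The hairpins with the motif are MIRLET7G (chr3:52268278-52268361, minus strand), MIRLET7A1 (chr9:94175957-94176036, plus strand) and MIRLET7D (chr9:94178834-94178920, plus strand). Those without it are MIRLET7A3 (chr22:46112749-46112822, plus strand), MIRLET7B (chr22:46113686-46113768, plus strand) and MIR98 (chrX:53556223-53556341, minus strand).
hsa-let-7a-5p: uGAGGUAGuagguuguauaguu
hsa-let-7d-5p: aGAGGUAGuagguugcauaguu
hsa-let-7g-5p: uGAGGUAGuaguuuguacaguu
MIRLET7G: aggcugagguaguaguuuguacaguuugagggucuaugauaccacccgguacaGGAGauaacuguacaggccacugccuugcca
MIRLET7A1: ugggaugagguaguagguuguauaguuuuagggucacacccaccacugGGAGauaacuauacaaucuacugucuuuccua
MIRLET7D: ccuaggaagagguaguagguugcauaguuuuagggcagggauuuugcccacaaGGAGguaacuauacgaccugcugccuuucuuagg
MIRLET7A3: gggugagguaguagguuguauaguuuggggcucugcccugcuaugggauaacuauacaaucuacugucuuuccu
MIRLET7B: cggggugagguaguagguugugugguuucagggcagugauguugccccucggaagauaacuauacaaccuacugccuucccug
MIR98: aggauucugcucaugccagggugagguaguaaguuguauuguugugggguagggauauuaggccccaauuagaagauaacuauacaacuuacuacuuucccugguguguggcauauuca

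Among the 10 genes, 4 hold a match to that seed in the longest 3′UTR that GENCODE 29 gives them. The letters searched on the message strand were CTACCTC and TACCTCA. A match to both at once (CTACCTCA) counts as 1 site, an 8mer. LIN28B has 5 sites in 4549 bases, of which 2 are 8mers. LIN28A has 1 site, an 8mer, DICER1 has 2 sites and TARBP2 has 2. DROSHA, DGCR8, XPO5, ZCCHC11, ZCCHC6 and DIS3L2 have none in this window. At least 1 site is present in 18.1% of the 11311 tested protein-coding genes with a 3′UTR. Of 1140 UTRs of a length like that of LIN28B, 40.4% hold at least 1 site and 0.175% hold at least 5. For TARBP2, with a UTR of 450 bases, 0.182% of 1100 UTRs of like length hold as many. The same share was 27.7% for LIN28A and 7.81% for DICER1. Each set of UTRs holds the gene itself, except that of LIN28A, which was not among the tested genes. The smallest shares therefore rest on very few other UTRs. A match is a run of letters and not a measured site. The lines below show both 8mers of LIN28B, that of LIN28A, and 1 site each of DICER1 and TARBP2, with the matching letters in capitals.
LIN28B site 1: cccggttgcaaagtCTACCTCA
LIN28B site 3: tttacagcaaaaggCTACCTCA
LIN28A site 1: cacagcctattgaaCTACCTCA
DICER1 site 2: ttggtaccatgcttTACCTCA
TARBP2 site 2: tgtgggtgccatctCTACCTCt

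Values are FPKM, sequenced fragments scaled to transcript length and library size. The tables hold no read numbers. Fragment equivalents computed from the deposited bounds summed to 4810000 to 5600000 in KO libraries and to 6310000 to 8370000 in control libraries. These sums can fall short of the true depth, because the bounds of some genes appear wider than counting error alone would make them. LIN28B KO library 3 stood apart: it had 17676 genes at 1 FPKM or more, against 15922 and 15932 in the other KO libraries and 15356 to 15430 in control libraries. Of 349 olfactory receptor genes, silent in most tissues, 28.7% were above 0 in that library, against 11.5% and 14.6% in KO libraries 1 and 2 and 9.46% to 12.3% in control libraries. Over the 6692 protein-coding genes that averaged 10 to 150 FPKM in control libraries, a span that holds 9 of the 10 genes, its log2 ratio to the control mean had a median of -0.48, against -0.05 and -0.06 in KO libraries 1 and 2. Tests were therefore run over all 6 libraries (15803 genes) and over 5 libraries without it (11308 protein-coding genes). All 8 plasma cell markers examined were at 1 FPKM or more in every library, with sums of 1989 to 2944 FPKM in KO libraries and 2966 to 3033 FPKM in control libraries. Sums of 6 T or NK cell and of 7 myeloid markers were higher in KO libraries, at 1.99 to 2.91 and 2.58 to 3.61 FPKM, against 1.39 to 1.64 and 1.29 to 1.51 FPKM in control libraries. CD3D, NKG7 and FCGR3A were listed at 0, and the part of these markers in the results was not tested. Sums of 5 erythroid markers were 0.0698 to 0.619 FPKM in KO libraries and 0.1 to 1.01 FPKM in control libraries. Sums of 6 epithelial or stromal markers, mostly KRT8, were 80.6 to 104 FPKM in KO libraries and 121 to 132 FPKM in control libraries.

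LIN28B (ENSG00000187772, chr6:105404923-105531207 of GRCh37, the files' build), the let-7 inhibitor targeted by the guide, fell in the KO group. It was at 8.41, 8.17 and 5.84 FPKM in LIN28B KO libraries, against 23.3, 24.3 and 25.5 FPKM in control libraries. The groups lay far apart, and the KO library lowest in LIN28B was library 3. Cyclic loess scaling removes a difference between libraries that depends on level. On that scale KO libraries 1, 2 and 3 stood at -1.45, -1.49 and -1.58 log2 units from the control mean. The KO mean of 7.47 ± 1.42 FPKM was 30.7% of the control mean of 24.4 ± 1.07 FPKM (SD, n = 3 each), and that of KO libraries 1 and 2 was 34.0% of it. The deposited bounds lay at most 9.44% from the estimate in KO libraries, so that counting error is small beside the difference. LIN28B changed by -1.66 on the log2 scale (SE 0.17, 95% interval -2.05 to -1.27, adjusted p 0.0207 by limma) over 6 libraries and -1.50 (SE 0.09, interval -1.70 to -1.30, adjusted p 0.00749) over 5. The transcript remained measurable in every KO library. In bulk RNA fewer cells carrying it and less of it per cell cannot be told apart. The call depends on every library of the 5: leaving out any 1 of them brought the adjusted p to between 0.0675 and 0.185 from the 6-library fit and to between 0.0521 and 0.0865 from the 5-library fit, with log2 fold changes of -1.75 to -1.47. It was also lost over 6 libraries without the filter on low values (adjusted p 0.142). After cyclic loess the call held, at -1.51 (adjusted p 0.0041 by limma) over 6 libraries and -1.46 (adjusted p 0.00861) over 5. Of 15 alternatives run over 6 libraries, 8 kept the call.

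**Figure D1:**
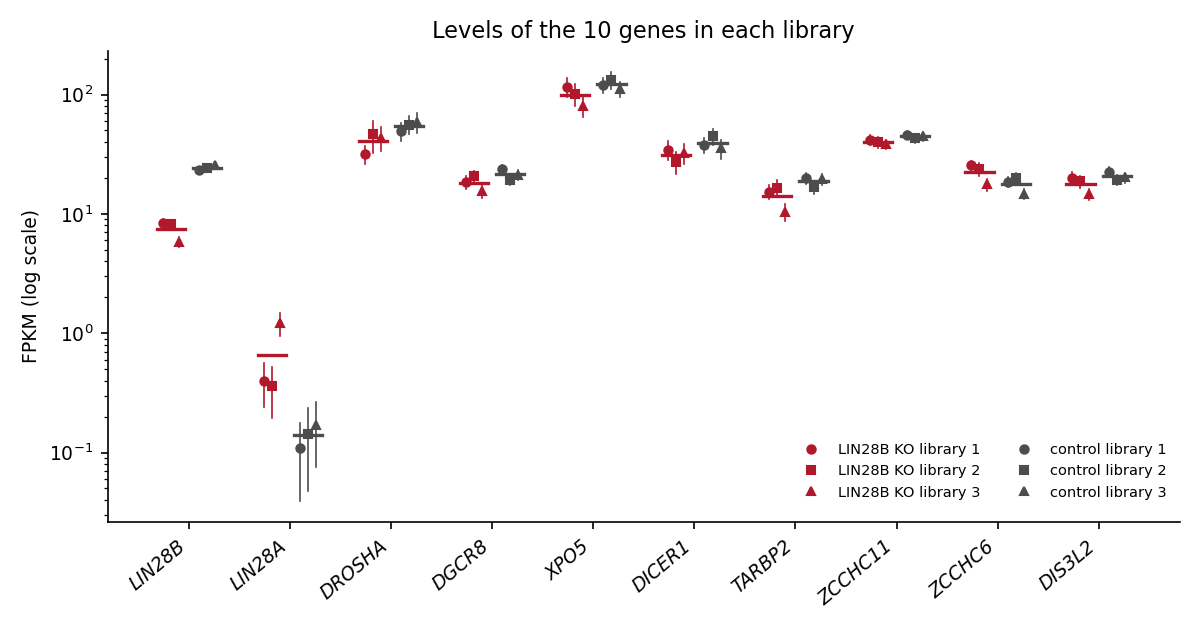
FPKM of the 10 genes (log axis) in each LIN28B KO library (left of each pair) and each control library (right), with points for libraries, vertical lines for the deposited lower and upper bounds, and horizontal bars for group means. The KO libraries of LIN28B, at 5.84 to 8.41 FPKM, all lie far below its control libraries, at 23.3 to 25.5 FPKM. LIN28A lies near the floor in both groups.

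LIN28A (ENSG00000131914, chr1:26737269-26756213), the paralogue expressed mainly in embryonic cells, was close to the detection limit. It was at 0.400, 0.358 and 1.21 FPKM in LIN28B KO libraries, against 0.108, 0.143 and 0.170 FPKM in control libraries. All KO libraries lay above all control libraries, and KO library 3 was the highest by a wide margin. These values rest on an estimated 25.2, 19.1 and 87.7 fragments in KO libraries and 9.92, 8.95 and 12.8 in control libraries. The KO mean was 4.66 times the control mean with all libraries and 2.70 times without KO library 3. LIN28A did not pass the filter of 1 FPKM in at least 3 libraries, which the other 9 genes did. Tested without that filter, its change on the log2(FPKM + 0.5) scale was 0.78 (adjusted p 0.564 by limma) over 6 libraries and 0.46 (SE 0.07, adjusted p 0.077) over 5, and neither passed 0.05. Many barely detected genes lay the same way. Of 1634 protein-coding genes within 2-fold of its control mean (0.0702 to 0.281 FPKM), KO libraries lay above control libraries in 20.4% over 6 libraries and in 24.2% over 5. The median ratio to the control mean in that class was 1.19, 1.202 and 1.97 in KO libraries 1 to 3, against 2.85, 2.55 and 8.60 for LIN28A. Relative to LIN28B per length, LIN28A came to 0.0475, 0.0438 and 0.207 in KO libraries and to 0.00463, 0.00587 and 0.00668 in control libraries (exact two-sided permutation p 0.1, the smallest possible, adjusted 0.2 over 4 ratios). LIN28B thus remained the more abundant of the pair in every library. Because LIN28B, the targeted gene, fell in KO libraries, this ratio rises even without a change of LIN28A. Its p is therefore no test of LIN28A.

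None of the 8 processing, uridylation and decay genes passed the adjusted threshold in either fit. Over 6 libraries, 1 of the 9 genes tested was called (LIN28B), where 0.0949% of all genes tested were called. Over 5 libraries 1 of 9 was called, again LIN28B, where 4.09% were. The 463 genes called over 5 libraries split into 122 higher and 341 lower in KO, and after cyclic loess scaling 254 were called, 122 higher and 132 lower. Over 6 libraries the median log2 fold change was -0.30 for the 9 genes and -0.13 for all genes. Over 5 libraries it was -0.15 for the 9 genes and -0.04 for all genes. Cyclic loess, which removes a difference that depends on level, set the median of all genes to 0.00 and that of the 9 genes to -0.07 and -0.09. KO and control libraries did not overlap, with KO lower, for LIN28B, DROSHA, DICER1, TARBP2 and ZCCHC11, in the 6-library and the 5-library comparison alike. That is 4 of the 8 genes other than the LIN28 pair, where 28.9% of coding genes at 10 to 150 FPKM were apart in that direction over 6 libraries and 29.7% over 5. For DICER1 and ZCCHC11 the deposited bounds of every KO library overlapped those of a control library. So did those of DROSHA and TARBP2, except DROSHA in KO library 1 and TARBP2 in KO library 3. Their upper bounds, 37.2 and 12.1 FPKM, lay below all control lower bounds of the same gene. Apart with KO higher were none of these 8 over 6 libraries, where 2.18% of that class were, and ZCCHC6 over 5 libraries, where 13.0% were.

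DROSHA (chr5:31400604-31532303), the nuclease of the Microprocessor, was at 31.8, 46.3 and 43.5 FPKM in LIN28B KO libraries, against 49.2, 56.0 and 58.9 FPKM in control libraries. All KO libraries lay below all control libraries, with KO library 1 the lowest. The deposited bounds lay 17.2% to 29.9% from the estimate in KO libraries. Those of KO libraries 2 and 3 overlapped the bounds of control libraries. The upper bound of KO library 1, 37.2 FPKM, lay below all control lower bounds, the lowest of which was 40.5 FPKM. The fitted log2 fold change came to -0.44 (95% interval -0.85 to -0.03, adjusted p 0.354 by limma) over 6 libraries and -0.50 (interval -0.88 to -0.12, adjusted p 0.131) over 5. On the loess scale the KO libraries stood at -0.71, -0.17 and 0.18 log2 units from the control mean, so that they differ in sign. Without KO library 1 the 6-library log2 fold change was -0.28 (adjusted p 0.364). DGCR8 (chr22:20067755-20099400), which holds the primary transcript for DROSHA, was at 18.5, 20.6 and 15.6 FPKM in KO libraries, against 23.6, 19.4 and 21.3 FPKM in control libraries. The groups overlapped, and the change of -0.23 (adjusted p 0.476) over 6 libraries and -0.13 (interval -0.38 to 0.13, adjusted p 0.530) over 5 did not pass. After cyclic loess the change of DGCR8 over 6 libraries was -0.07. The DGCR8 locus overlaps TRMT2A, which reached 71.3 FPKM, and the antisense gene AC006547.8, which reached 23.3 FPKM. It also overlaps the microRNA genes MIR3618 and MIR1306, listed at up to 58.7 and 91.3 FPKM. Strand is not stated for these libraries, so reads of these genes in the shared stretches may not be separable from those of DGCR8. The ratio of DROSHA to DGCR8 averaged 2.25 ± 0.54 in KO libraries and 2.58 ± 0.43 in control libraries (SD, n = 3 each, exact two-sided permutation p 0.6, adjusted 0.7 over 4 ratios).

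XPO5 (chr6:43490072-43543812), the export receptor of hairpin precursors, was the most abundant of the 10 genes. It was at 117, 102 and 80.1 FPKM in LIN28B KO libraries, against 120.5, 133 and 112 FPKM in control libraries. KO library 1 lay inside the control range, and KO library 3 was the lowest. XPO5 had a log2 fold change of -0.30 (interval -0.70 to 0.10, adjusted p 0.433 by limma) over 6 libraries and -0.15 (interval -0.37 to 0.07, adjusted p 0.371) over 5. The interval over 5 libraries reaches down to a level 1.30-fold lower. After cyclic loess the log2 fold change of XPO5 over 6 libraries was -0.06. Its locus overlaps POLR1C, which was at 36.7 FPKM or less.

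DICER1 (chr14:95552565-95624347), which cuts precursors into mature duplexes, was at 34.6, 27.2 and 32.3 FPKM in LIN28B KO libraries, against 37.6, 44.6 and 35.3 FPKM in control libraries. All KO libraries lay below all control libraries, but KO library 1 and control library 3 nearly met. The deposited bounds lay 18.9% to 20.4% from the estimate in KO libraries and overlapped those of control libraries. DICER1 had a log2 fold change of -0.32 (interval -0.68 to 0.04, adjusted p 0.391 by limma) over 6 libraries and -0.34 (interval -0.67 to -0.02, adjusted p 0.201) over 5. Over 5 libraries it was -0.51 without KO library 1 and -0.17 without KO library 2, and over 6 libraries it was -0.12 after cyclic loess, where KO library 3 stood at 0.21 above the control mean. DICER1-AS1, which overlaps its locus, was at no more than 3.202 FPKM. TARBP2 (chr12:53894705-53900215), the double-stranded RNA-binding partner of DICER1, was at 15.4, 16.6 and 10.4 FPKM in KO libraries, against 19.9, 16.7 and 19.5 FPKM in control libraries. KO library 2 and control library 2 almost met, and KO library 3 was the lowest. Over 6 libraries TARBP2 had a log2 fold change of -0.41 (adjusted p 0.385), which was -0.22 (interval -0.47 to 0.04, adjusted p 0.279) without KO library 3. After cyclic loess the 6-library value was -0.25. The ratio of DICER1 to TARBP2 was 2.33 ± 0.73 in KO libraries and 2.13 ± 0.48 in control libraries (SD, n = 3 each, exact two-sided permutation p 0.7, adjusted 0.7).

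ZCCHC6 (TUT7; chr9:88902648-88969369) was the only processing, uridylation or decay gene with a higher mean in KO libraries. It was at 25.5, 23.7 and 17.7 FPKM in LIN28B KO libraries, against 18.6, 19.9 and 14.7 FPKM in control libraries. KO libraries 1 and 2 lay above all control libraries, while KO library 3 fell within the control range. Its log2 fold change was 0.32 (interval -0.13 to 0.76, adjusted p 0.449 by limma) over 6 libraries and 0.47 (SE 0.14, interval 0.15 to 0.80, adjusted p 0.106) over 5. Without control library 3 the 6-library value was 0.19. On the loess scale the KO libraries stood at 0.56, 0.46 and 0.44 log2 units above the control mean, close to each other, with adjusted p 0.142 over 6 libraries and 0.103 over 5. ZCCHC11 (TUT4; chr1:52873954-53019159), the paralogue that LIN28 is best known to recruit, was at 41.8, 39.7 and 38.3 FPKM in KO libraries, against 45.8, 43.3 and 45.0 FPKM in control libraries. All KO libraries lay just below all control libraries, and both groups were tight. ZCCHC11 had a log2 fold change of -0.16 (adjusted p 0.506) over 6 libraries and -0.13 (interval -0.29 to 0.03, adjusted p 0.298) over 5. After cyclic loess it was 0.04 over 6 libraries, so its direction depends on the scaling. PRPF38A overlaps the locus of ZCCHC11 at up to 38.9 FPKM. No other gene of the files overlaps that of ZCCHC6.

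The balance of the 2 uridylating enzymes was examined within each library, where a factor common to all genes of a library cancels. Scaling that depends on level does not cancel. The ratio of ZCCHC6 to ZCCHC11 was 0.610, 0.598 and 0.462 in LIN28B KO libraries, against 0.407, 0.459 and 0.326 in control libraries. In FPKM every KO library lay above every control library, with KO library 3 and control library 2 nearly equal. The mean of 0.556 ± 0.082 in KO libraries was 1.40 times that of 0.397 ± 0.067 in control libraries (SD, n = 3 each). The exact two-sided permutation p was 0.1, the smallest that 3 against 3 libraries allow, and 0.2 after Benjamini-Hochberg adjustment over the 4 ratios computed, so the difference did not pass a threshold of 0.05. The 4 include LIN28A to LIN28B, whose denominator is the targeted gene and whose small p lowers this adjusted value. After cyclic loess the log2 difference of the pair from its control mean was 0.60, 0.57 and 0.16 in KO libraries, against 0.05, 0.22 and -0.27 in control libraries. On that scale KO library 3 lay below control library 2, the groups overlapped, and the exact two-sided permutation p was 0.2. DIS3L2 (chr2:232825955-233209060), the exonuclease that removes uridylated precursors, was at 20.1, 18.7 and 14.7 FPKM in KO libraries, against 22.5, 19.3 and 20.2 FPKM in control libraries. KO library 1 lay within the control range, and KO library 3 was the lowest. DIS3L2 had a log2 fold change of -0.22 (adjusted p 0.510 by limma) over 6 libraries and -0.09 (interval -0.32 to 0.14, adjusted p 0.633) over 5. After cyclic loess the 6-library value was -0.05.

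**Figure D2:**
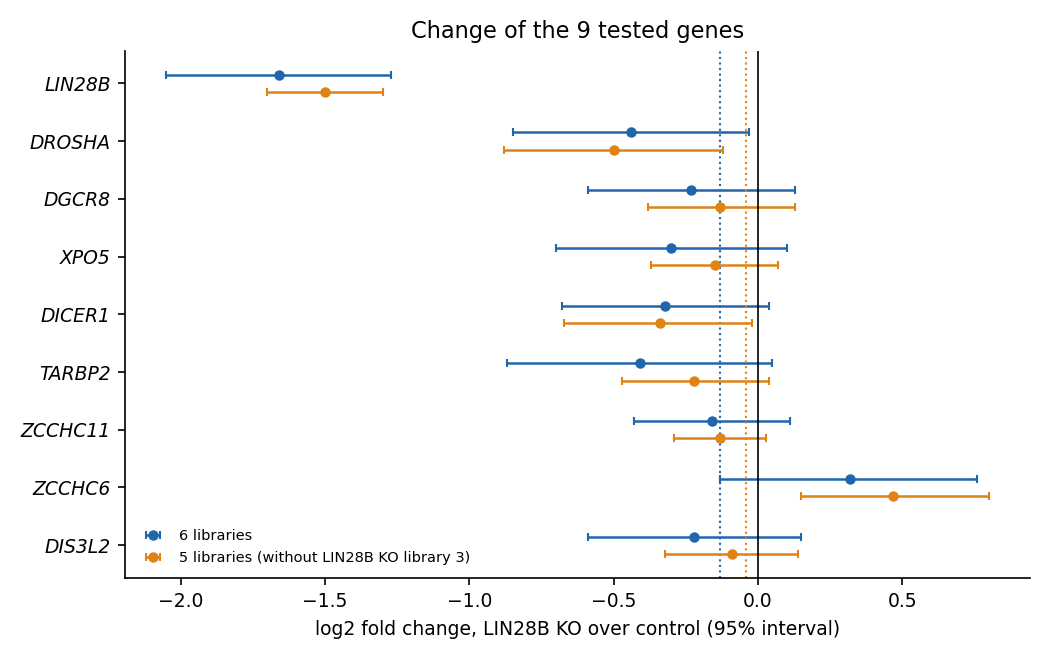
Log2 fold change, LIN28B KO over control, of the 9 tested genes with 95% intervals, over 6 libraries and over 5 libraries without KO library 3. Dotted lines mark the medians of all genes tested, -0.13 and -0.04. LIN28B, at -1.66 and -1.50, stands apart from the other 8 genes, which lie between -0.50 and 0.47.

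**Figure D3:**
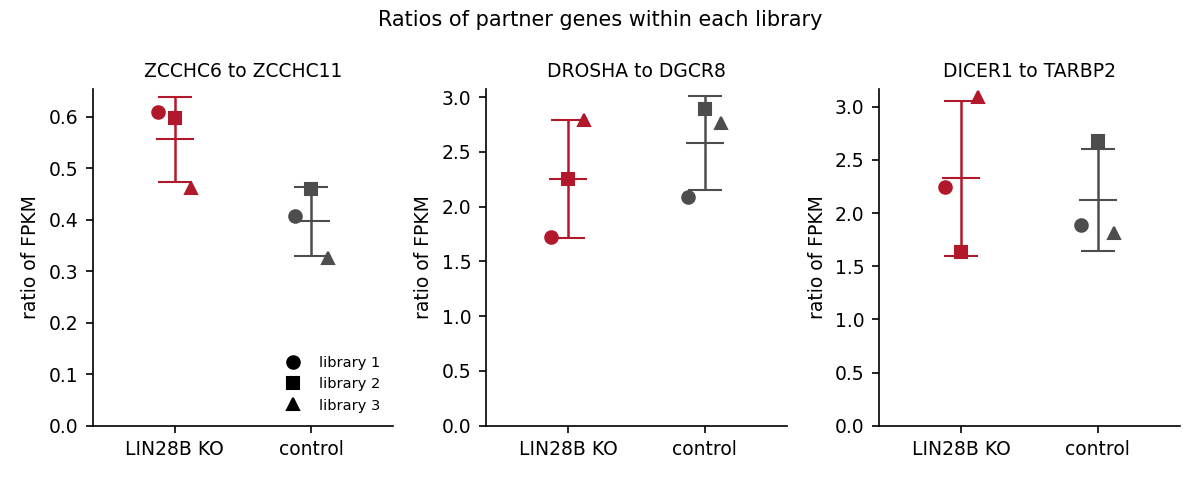
Ratios of FPKM between partner genes in each library, LIN28B KO left of control, with a horizontal line at the group mean and error bars of 1 SD (n = 3 each). The ZCCHC6 to ZCCHC11 ratio is 0.462 to 0.610 in KO libraries and 0.326 to 0.459 in control libraries, although these groups overlap after cyclic loess. The ratios of DROSHA to DGCR8 and of DICER1 to TARBP2 overlap between the groups.

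Ordered by level, which FPKM allows because it is per length, XPO5 was highest in both groups. In LIN28B KO libraries it was followed by DROSHA and ZCCHC11, whose ranges overlapped, by DICER1, and by ZCCHC6, DGCR8, DIS3L2 and TARBP2, each overlapping the next. LIN28B came 9 of 10 in KO libraries, below TARBP2 without overlap, and LIN28A last. In control libraries LIN28B came 5 of 10, with DGCR8, DIS3L2, TARBP2 and ZCCHC6 following, each overlapping the gene before it. DROSHA was above ZCCHC11 there without overlap, and ZCCHC11 overlapped DICER1. The spread between libraries was widest in KO libraries for LIN28A (73.1% of the mean) and narrowest for ZCCHC11 (4.48% in KO libraries and 2.90% in control libraries).

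The wider pathway was read through 7 lists of 75 genes, of which 74 were found. Over 6 libraries 59 were tested and none was called by limma. Over 5 libraries 57 were tested, with 1 called higher and 3 called lower in KO (7.02%, against 4.09% of all genes). After cyclic loess only PAPD4 of those 4 remained called, and leaving out any library ended every call of the 5-library fit. The lists' median log2 fold change was -0.07 over 5 libraries, against -0.04 for all genes.

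PAPD4 (GLD2, TUT2), a nucleotidyltransferase that adds single nucleotides to RNA 3′ ends and has been tied to pre-let-7 uridylation, was the gene called higher. It was at 37.4, 32.3 and 26.2 FPKM in LIN28B KO libraries, against 25.1, 26.2 and 25.7 FPKM in control libraries. KO libraries 1 and 2 were above all controls, and KO library 3 was level with the highest. PAPD4 rose by 0.43 on the log2 scale (SE 0.09, adjusted p 0.047 by limma) over 5 libraries. It was at 0.48 (adjusted p 0.048) after cyclic loess and at 0.30 (adjusted p 0.411) over 6 libraries. Of the 8 tailing and trimming enzymes it was the 1 called, and MTPAP, the mitochondrial poly(A) polymerase, and PARN, a deadenylase, were at -0.21 and -0.15 (adjusted p 0.250 and 0.386) over 5 libraries. Over 6 libraries they were at -0.28 and -0.21 (adjusted p 0.391 and 0.464).

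Of 11 Microprocessor partners, 1 was called lower over 5 libraries. HNRNPA1, a hnRNP that binds the let-7a-1 primary transcript, was at 733, 755 and 501 FPKM in LIN28B KO libraries, against 943, 927 and 880 FPKM in control libraries. All KO libraries were below all controls. HNRNPA1 fell by 0.30 on the log2 scale over 5 libraries (SE 0.04, adjusted p 0.0289 by limma), and after cyclic loess it was at -0.19 (adjusted p 0.0677). Over 6 libraries it was at -0.49 and was not called (adjusted p 0.353). ILF2, an RNA-binding protein found with the Microprocessor, was at -0.25 over 5 libraries (adjusted p 0.0576) and at -0.42 over 6 (adjusted p 0.362). Among 6 export and Dicer partners, RAN, the GTPase that powers export by exportin-5, was called lower over 5 libraries. It was at 426, 444 and 289 FPKM in KO libraries, against 537, 516 and 542 FPKM in control libraries, with all KO libraries below all controls. RAN fell by 0.29 on the log2 scale (SE 0.04, adjusted p 0.0298) over 5 libraries, and the call did not hold after cyclic loess (adjusted p 0.0834) or over 6 libraries, at -0.49 (adjusted p 0.354). The RNA-editing enzyme ADAR and the nuclear pore protein NUP153 were at 0.13 and -0.20 over 5 libraries (adjusted p 0.149 and 0.194). With KO library 3 included, NUP153 was at -0.32 (adjusted p 0.376), and the adjusted p of ADAR was 0.995.

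No gene was called among 9 tested Argonaute and silencing genes or 16 RNA decay genes in either fit. AGO2, the slicing Argonaute, varied widely, at 17.5, 40.4 and 49.9 FPKM in LIN28B KO libraries, against 43.9, 35.8 and 39.6 FPKM in control libraries. KO library 1 lay far below the rest and KO library 3 above all others. Over 5 libraries the log2 fold change of AGO2 was -0.56 (adjusted p 0.327 by limma), that of AGO3 0.20 (adjusted p 0.427), and that of MOV10, a helicase bound to Argonaute, -0.37 (adjusted p 0.266). Over 6 libraries AGO2 was at -0.27 (adjusted p 0.721), AGO3 at 0.25 (adjusted p 0.455) and MOV10 at -0.48 (adjusted p 0.362). Among decay genes, XRN1, the cytoplasmic 5′ to 3′ exonuclease, was at 33.4, 29.1 and 48.6 FPKM in KO libraries, against 18.4, 20.5 and 28.5 FPKM in control libraries. All KO libraries were above all controls, and its log2 fold change of 0.49 over 5 libraries and 0.70 over 6 did not pass (adjusted p 0.173 and 0.318). EXOSC4, a subunit of the exosome, and PNPT1, the mitochondrial polynucleotide phosphorylase, were at -0.28 and -0.32 over 5 libraries (adjusted p 0.0771 and 0.0894). Over 6 libraries EXOSC4 was at -0.59 (adjusted p 0.370) and PNPT1 at -0.44 (adjusted p 0.320).

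Of the 10 genes listed as cofactors or targets of LIN28 and let-7, 7 were tested, and HMGA2 was called lower over 5 libraries. HMGA2, a chromatin protein and let-7 target, was at 4.43, 3.26 and 3.53 FPKM in LIN28B KO libraries, against 8.72, 10.8 and 6.92 FPKM in control libraries. The groups did not overlap. HMGA2 fell by 1.09 on the log2 scale over 5 libraries (SE 0.21, adjusted p 0.0408 by limma). It was at -1.08 (adjusted p 0.0533) after cyclic loess and at -1.12 (adjusted p 0.219) over 6 libraries. SYNCRIP, an RNA-binding protein, and IGF2BP3, an RNA-binding protein and let-7 target, were at -0.30 and -0.29 over 5 libraries (adjusted p 0.0576 and 0.132). Over 6 libraries they were at -0.37 and -0.29 (adjusted p 0.318 and 0.366).

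**Figure D4:**
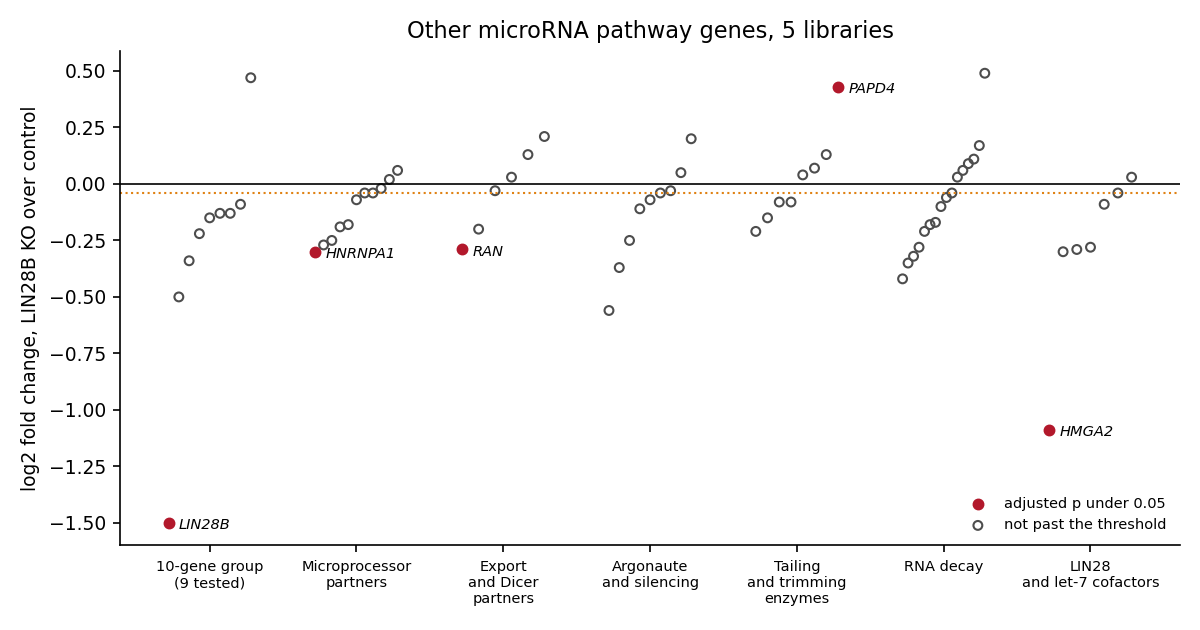
Log2 fold change, LIN28B KO over control, over 5 libraries without KO library 3, for the 9 tested genes of the LIN28 and let-7 processing group (leftmost) and each wider list, 1 point per gene. Filled red points are called genes, and the dotted line is the median of all genes tested (-0.04). HMGA2 at -1.09 and PAPD4 at 0.43 are called at either side of 0, and HNRNPA1 and RAN are called at -0.30 and -0.29.

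The let-7 host loci themselves could hardly be read from these libraries. Of 14 loci listed 13 were found, and 2 were tested, over 6 libraries. MIRLET7D was at 107, 42.7 and 32.8 FPKM in LIN28B KO libraries, against 46.0, 97.9 and 0 FPKM in control libraries. A hairpin is so short that a few fragments give such values, and the groups overlapped. LINC00478, the host of MIRLET7C, was at 4.17, 4.96 and 11.01 FPKM in KO libraries and at 5.43, 4.57 and 9.22 FPKM in control libraries, with overlap. MIRLET7A2, MIRLET7C, MIRLET7E, MIRLET7G and MIR98 were listed at 0 in every library. No estimate of the loci found was marked as failed. An exact 0 in these tables can still be an estimate that was suppressed.

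Likeness to LIN28B was measured as the root mean square difference in log2 ratio to the control mean over the 6 libraries, among 9087 protein-coding genes that averaged at least 5 FPKM in control libraries. The most alike were RP11-618P17.4 (0.31), RP11-603J24.9 (0.33), HIC1 (0.39), RP11-77K12.1 (0.40) and HMGA2 (0.46), all named as the files name them. They were picked for a pattern over the same libraries, so their own changes are a description. HIC1, a transcriptional repressor, was at 5.09, 4.86 and 3.10 FPKM in LIN28B KO libraries, against 10.3, 9.21 and 10.0 FPKM in control libraries. All its KO libraries lay below all its control libraries.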

How the data were processed

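Total RNA libraries of MOLP-8 cells were made with a NEBNext kit, per the labels' protocols. Groups were taken from the condition label. The submitters' processing notes name TopHat2, HTSeq, cutadapt and the GRCh37 build, without roles or versions. The deposited values are FPKM, with a lower and an upper bound per gene, per the file headers. The sources used here do not state the tool that wrote them, the annotation or the use of strand. FPKM scales by length and library total, so a few abundant genes or a library with many low genes can shift all others.

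Rows of 108 genes listed more than once were summed and 25 genes with a failed estimate were dropped, leaving 57861. Genes reaching 1 FPKM in 3 or more libraries were tested as log2(FPKM + 0.5) in R 4.3.3 by limma 3.58.1, with its variance trend, two-sided, with Benjamini-Hochberg adjustment over all genes tested and a threshold of 0.05. The pseudocount understates changes of low genes. The design allowed for read numbers or FPKM, and the FPKM test applied. The fit without LIN28B KO library 3 used genes that GENCODE 29 calls protein-coding by gene ID. That annotation, of another build, also gave the 3′UTR sequences. The script was checked on simulated data. Fragment equivalents were computed by dividing 2 times the FPKM by its distance to the upper bound and squaring. They came out whole, within 0.01, for 1306 of 9440 low genes, are only a rough guide to fragment numbers and enter no test. The bounds appear to hold more than counting error. In control library 1, XPO5 at 120.5 FPKM came to 197 fragment equivalents, against 2775 for LIN28B at 23.3 FPKM. What else widens them was not tested. PCR copies cannot be told from separate molecules without molecular identifiers.

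The 10 genes and the 7 wider lists were chosen with earlier results of these data known. Named from each list were all called genes and the 3 with the smallest p over 5 libraries, of which 1 is not reported here. Alternatives were other pseudocounts, no filter, quantile and cyclic loess scaling, no variance trend, other gene classes, a replicate block and leaving out each library.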

Additional observations from a re-analysis of the deposited data

How the results depend on the processing

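Of 15 genes called over 6 libraries, the count became 6 without the filter, 28 with quantile normalization, 111 with cyclic loess, 31 among protein-coding genes and 274 among protein-coding genes with cyclic loess (chosen after seeing the data), and 4 to 64 when 1 library was left out (64 without LIN28B KO library 3, 7 without KO library 1 and 4 without KO library 2). Of 463 called over 5 libraries, it became 24 without the filter, 247 with quantile normalization, 254 with cyclic loess, 11 with no variance trend in limma, 64 among all genes and 0 when any 1 library was left out, with 1964 to 2349 genes at an unadjusted p under 0.05 in those limma fits.

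LIN28B kept its direction under every alternative run. Its log2 fold change over 6 libraries was -1.66 without the filter (adjusted p 0.142 by limma) and -1.75 to -1.50 when 1 library was left out, and of the 10 genes the number called was 0 without the filter and 0 to 1 when 1 library was left out. Over 5 libraries it was -1.53 to -1.47 when 1 library was left out, with 0 of the 10 genes called. Those fits have fewer libraries, and the cause of the other differences was not tested. The other 8 tested genes gave 224 alternative values, of which 221 kept their direction and none was called. ZCCHC11 over 6 libraries changed sign, to 0.01 with quantile normalization, 0.04 with cyclic loess and 0.04 with cyclic loess among protein-coding genes.

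The groups share replicate numbers, but deviations from the group means of same-numbered libraries correlated at only -0.0213, 0.0437 and -0.0327, and not every library correlated best with its own number, so the numbers were not taken to pair the libraries. With the replicate block 13 genes were called over 6 libraries and 0 over 5 (2065 at an unadjusted p under 0.05). LIN28B was then at -1.66 (adjusted p 0.0604) over 6 libraries and -1.47 (adjusted p 0.061) over 5, with 0 of the 10 genes called in either fit. The levels of LIN28A rest on few fragments. The ratio of ZCCHC6 to ZCCHC11, 1.40 times higher in KO libraries, was 1.37 times higher with cyclic loess (chosen after seeing the data).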
